A study of Homo sapiens with 27 samples.

Results

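The SOX genes that mark and regulate neural progenitors were followed while human embryonic stem cells were differentiated toward photoreceptor progenitors on laminin matrices. The 10 genes, SOX1, SOX2, SOX3, SOX4, SOX5, SOX6, SOX8, SOX9, SOX11, and SOX21, were taken by name, and all 10 were found among the 44852 genes of the deposited table. Bulk RNA-seq was performed on H1, an established human embryonic stem cell line, on 3 matrices named LN523, LN323, and LN521, at days 2, 22, and 32, with 3 libraries in each of the 9 groups. The sample labels give an earlier day number for each group, and the series description equates these with days 2, 22, and 32 of the publication. Laminins are heterotrimeric matrix proteins, and the digits of a name give the alpha, beta, and gamma chain. The sample labels give LN323 as coated alone and LN523 and LN521 as each mixed with LN323, whereas the methods of the paper give LN521 as coated alone and LN523 and LN323 as each mixed with LN521. The matrices are therefore named here by their leading isoform, and which laminin the cultures shared cannot be told apart from these sources. From day 2 the cells received CKI-7, an inhibitor of casein kinase 1, and SB431542, an inhibitor of activin and TGF-beta receptors, followed by a photoreceptor medium with BDNF, CNTF, retinoic acid, and the gamma-secretase inhibitor DAPT, so the day 2 libraries stand for undifferentiated cells. All values come from 1 cell line, and nothing in the labels says that the replicates were separate cultures, so p-values measure the spread between these libraries, which may be technical. Total counts ranged from 25620624 to 47340990 per library.

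SOX proteins bind DNA through a high mobility group (HMG) box and act together with partner factors. The SOXB1 genes SOX1, SOX2, and SOX3 hold neural cells in a progenitor state, and SOX2 is also part of the pluripotency circuit with OCT4 and NANOG. SOX21, a SOXB2 gene, is known to counter SOXB1 activity. The SOXC genes SOX4 and SOX11 act in neuronal differentiation, the SOXD genes SOX5 and SOX6 often work beside SOX9, and the SOXE genes SOX8 and SOX9 are known from glia, neural crest, and cartilage, with SOX9 also present in retinal progenitors and Müller glia.

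The coding sequence of the HMG box is shown because it is where these genes are most alike, so that it shows how separable their reads were. The first 60 bases of the compared stretch, read on GRCh38 with the GENCODE 44 annotation, are printed on the coding strand for members from each subgroup, with the bases that differ from SOX2 in capitals.
SOX2: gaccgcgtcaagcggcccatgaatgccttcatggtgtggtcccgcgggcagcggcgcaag
SOX1: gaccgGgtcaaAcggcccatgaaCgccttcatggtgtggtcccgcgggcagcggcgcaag
SOX3: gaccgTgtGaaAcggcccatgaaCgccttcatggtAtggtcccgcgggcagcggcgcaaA
SOX21: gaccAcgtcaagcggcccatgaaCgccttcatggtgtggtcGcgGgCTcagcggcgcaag
SOX4: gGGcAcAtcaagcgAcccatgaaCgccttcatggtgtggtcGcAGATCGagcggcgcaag
SOX11: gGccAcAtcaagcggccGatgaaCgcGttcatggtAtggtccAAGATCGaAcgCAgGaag
SOX6: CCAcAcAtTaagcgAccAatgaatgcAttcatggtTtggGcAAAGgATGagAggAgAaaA
SOX9: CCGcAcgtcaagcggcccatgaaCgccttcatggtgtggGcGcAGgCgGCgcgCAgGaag
These coding exon stretches lie at SOX2 (ENSG00000181449) chr3:181712475-181712534 on the plus strand, SOX1 (ENSG00000182968) chr13:112067803-112067862 on the plus strand, SOX3 (ENSG00000134595) chrX:140504593-140504652 on the minus strand, SOX21 (ENSG00000125285) chr13:94711975-94712034 on the minus strand, SOX4 (ENSG00000124766) chr6:21594703-21594762 on the plus strand, SOX11 (ENSG00000176887) chr2:5692860-5692919 on the plus strand, SOX6 (ENSG00000110693) chr11:15989049-15989108 on the minus strand, and SOX9 (ENSG00000125398) chr17:72121698-72121757 on the plus strand. SOX1 differed from SOX2 at 3 of the 60 bases, SOX3 and SOX21 at 6 each, SOX4 at 13, SOX9 at 15, SOX11 at 18, and SOX6 at 22. Over 207 bases of the box, identity with SOX2 was 93.7% for SOX1, 89.9% for SOX21, and 86.0% for SOX3, and was 87.9% between SOX4 and SOX11, 90.8% between SOX8 and SOX9, and 81.6% between SOX5 and SOX6. Even so, 0% of the words of 150 bases, the length of a read, in the transcripts of 9 members occurred in a transcript of another gene. In SOX4, 0.445% of words were shared, with 1 gene annotated on the opposite strand.

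Levels of different genes were compared on the scale of the authors' TPM (transcripts per 1000000, allowing for gene length), and libraries were compared on CPM (counts per 1000000 after TMM scaling). At day 2 SOX2 led with 496 to 818 TPM over the 9 libraries, above SOX4 (119 to 191 TPM) without overlap. SOX21 (5.64 to 162 TPM) and SOX11 (49.6 to 73.7 TPM) could not be placed in order, since SOX21 was the higher in 5 of 9 libraries. SOX3 (19.7 to 40.9 TPM), SOX8 (16.0 to 22.9 TPM), and SOX9 (7.02 to 13.4 TPM) followed, and SOX5, SOX1, and SOX6 had at most 1.52 TPM. At day 22 SOX4 came first with 244 to 442 TPM, above SOX2 (70.9 to 300.0 TPM) in 9 of 9 libraries, and SOX2 was above SOX11 (85.5 to 195 TPM) in 7 of 9. SOX9 (21.5 to 64.2 TPM) was above SOX8 (10.9 to 43.6 TPM) in 7 of 9 libraries, with overlapping ranges. At day 32 the means kept the order SOX4, SOX2, SOX11, SOX9, SOX8, SOX3, SOX5, and SOX6. In single libraries SOX4 exceeded SOX2 in 8 of 9 and SOX2 exceeded SOX11 in 6 of 9. SOX3 exceeded SOX5 in only 3 of 9 libraries, so SOX3 and SOX5 could not be placed in order.

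The make-up of the SOX transcripts thus turned over after day 2. SOX1, SOX2, and SOX3 together held 63.1 to 71.1% of the summed TPM of the 10 genes at day 2, 11.7 to 37.2% at day 22, and 11.8 to 37.8% at day 32. SOX4 and SOX11 together held 17.5 to 28.9%, 49.4 to 78.6%, and 49.3 to 78.1% on the same days. The 4 SOXD and SOXE genes held 2.37 to 3.79%, 9.65 to 13.9%, and 8.21 to 12.9%. The ranges at day 2 did not overlap those of either later day for any of these groups, whereas the ranges of days 22 and 32 overlapped. The summed TPM of the 10 genes had a median of 1019 at day 2, 769 at day 22, and 776 at day 32. Shares within a library are not independent, and in bulk samples fewer cells of a type and less RNA per cell cannot be told apart.

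**Figure D1:**
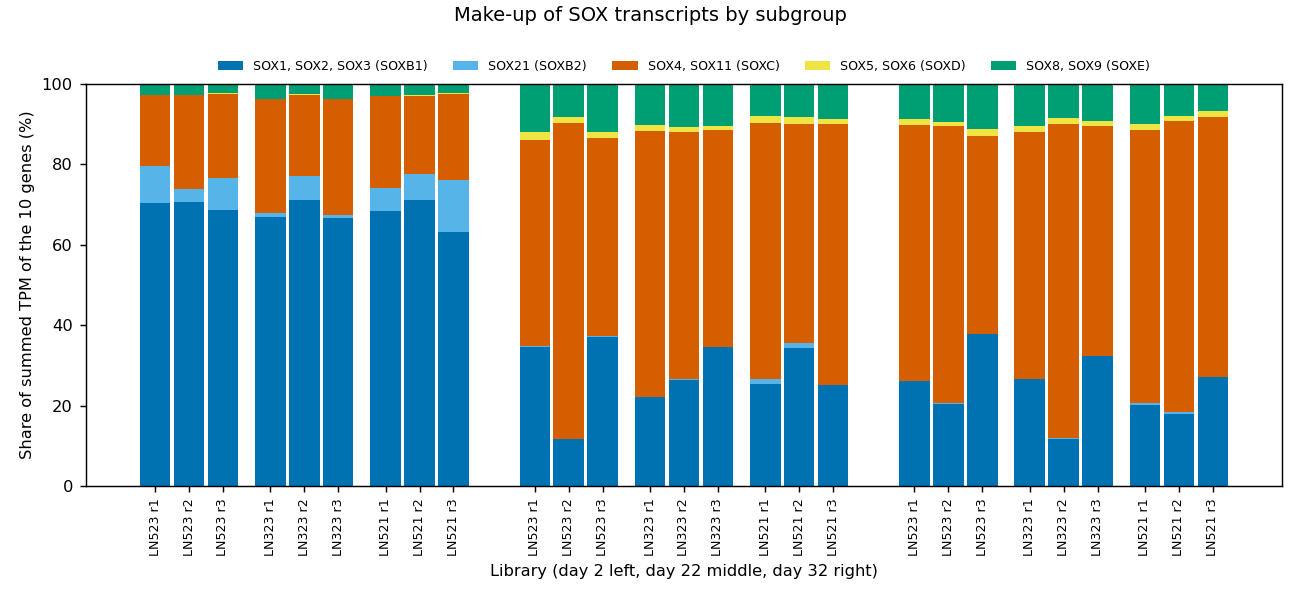
Share of the summed TPM of the 10 SOX genes (percent, vertical axis) held by each subgroup in each of the 27 libraries, with day 2 at the left, day 22 in the middle, and day 32 at the right, and r1 to r3 for the replicates. The SOX1, SOX2, and SOX3 share was 63.1 to 71.1% in the day 2 libraries and 11.8 to 37.8% at day 32.

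From day 2 to day 22, SOX2 and SOX21 fell and SOX4, SOX5, SOX6, and SOX9 rose on each of the 3 matrices by edgeR's quasi-likelihood test at a Benjamini-Hochberg adjusted p under 0.05. On LN523, 4 members rose, where 11.4% of the 44852 genes tested did, and 2 fell, where 10.9% did. On LN323, 5 rose (11.7% of genes) and 3 fell (11.6% of genes), with SOX11 added to the first and SOX3 to the second. On LN521, 5 rose (11.3% of genes) and 2 fell (10.3% of genes), with SOX11 added to the first. All 10 members passed the filter of more than 1 count in sum. That filter keeps genes with as few as 2 counts in all, so the shares include many genes too low to be called. With a filter on low counts, 5757 genes rose and 5396 fell of 25682 on LN523, and the same members were called.

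**Figure D2:**
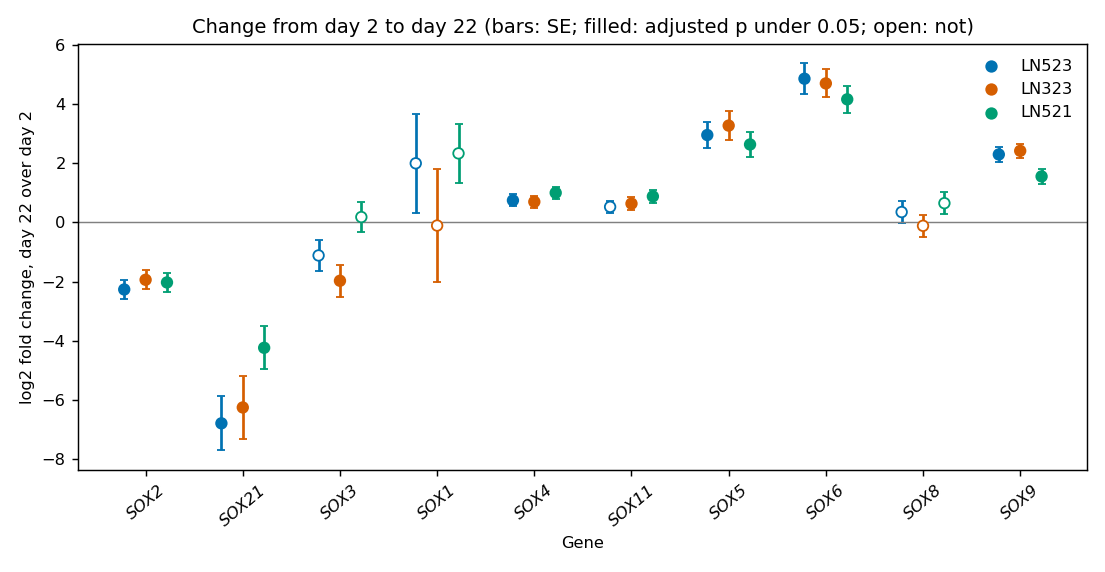
Log2 fold change from day 2 to day 22 (vertical axis) of each SOX gene (horizontal axis) on each matrix, with bars for the SE and filled points for an adjusted p under 0.05. SOX2 and SOX21 lie below 0 and SOX4, SOX5, SOX6, and SOX9 above 0 on all 3 matrices, SOX6 between 4.16 and 4.85.

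SOX2 was the most abundant member before induction. At day 2 it had 531, 463, and 593 CPM on LN523, 411, 559, and 406 CPM on LN323, and 366, 437, and 524 CPM on LN521. By day 22 it had 127, 41.7, and 188 CPM on LN523, 96.0, 109, and 180.0 CPM on LN323, and 88.4, 116, and 117 CPM on LN521. Each day 22 library was below each day 2 library, and LN523 replicate 2 was the lowest of all. The fall was 4.80-fold on LN523 (log2 fold change -2.26 ± 0.32, SE, n = 3 against 3, edgeR adjusted p = 2.75e-06), 3.83-fold on LN323 (-1.94 ± 0.32, adjusted p = 2.15e-05), and 4.07-fold on LN521 (-2.03 ± 0.32, adjusted p = 1.42e-05). Without LN523 day 22 replicate 2 the LN523 log2 fold change was -1.75 (adjusted p = 6.45e-05). At 41.7 CPM or more, SOX2 was still well detected in each later library.

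SOX3, the SOXB1 gene on the X chromosome, had 14.0 to 31.8 CPM at day 2. At day 22 it had 19.1, 2.38, and 9.78 CPM on LN523, 6.93, 2.60, and 9.56 CPM on LN323, and 29.95, 18.2, and 10.3 CPM on LN521. The days did not overlap on LN323 and did overlap on LN523 and LN521. SOX3 fell on LN323 (log2 fold change -1.97 ± 0.54, adjusted p = 0.00591), a call that was lost without LN323 day 22 replicate 2 (adjusted p = 0.0783) and in limma on log2(TPM + 1) (adjusted p = 0.0591). The log2 fold change was -1.12 ± 0.52 on LN523 (adjusted p = 0.149) and 0.18 ± 0.50 on LN521 (adjusted p = 0.92). The edgeR test of whether this change differed between the matrices had an unadjusted p of 0.0213 and an adjusted p of 1.

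SOX1, a marker of early neuroectoderm, was close to the lower end of detection, with 0 to 20 counts or 0 to 0.526 CPM at day 2. On day 22 the values were 0.972, 0.0476, and 0.172 CPM on LN523, 0.228, 0, and 0.141 CPM on LN323, and 4.24, 0.853, and 0 CPM on LN521. LN521 replicate 1 was far above the other 8 libraries, and it was again the highest at day 32, with 4.86 CPM. The change from day 2 to day 22 did not pass on LN523 (2.00 ± 1.66, adjusted p = 0.538), LN323 (-0.11 ± 1.91, adjusted p = 1), or LN521 (2.33 ± 0.99, adjusted p = 0.0915). The LN521 value passed without the lane block (log2 fold change 2.68, adjusted p = 0.0395), without LN521 day 2 replicate 3 (adjusted p = 0.0184), and without LN521 day 22 replicate 3 (adjusted p = 0.0398), while without LN521 day 22 replicate 1 the adjusted p was 0.679.

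SOX21 had the steepest fall of the 10 genes on each matrix. At day 2 it had 79.2, 25.1, and 77.6 CPM on LN523, 7.73, 54.5, and 5.11 CPM on LN323, and 36.5, 46.3, and 125 CPM on LN521. The libraries of day 2 were far apart, with LN323 replicates 1 and 3 lowest and LN521 replicate 3 highest. At day 22 it had 0.926, 0.0476, and 0.743 CPM on LN523, 0.0761, 0.250, and 0.422 CPM on LN323, and 6.58, 4.74, and 0.357 CPM on LN521. The days did not overlap on any matrix. The log2 fold change was -6.78 ± 0.91 on LN523 (adjusted p = 5.58e-07), -6.25 ± 1.06 on LN323 (adjusted p = 2.22e-05), and -4.23 ± 0.73 on LN521 (adjusted p = 3.7e-05). The test of a difference between matrices in this change had an unadjusted p of 0.102 and an adjusted p of 1. At day 32 SOX21 had 3.38, 1.88, and 0 CPM on LN521, where a count of 0 in replicate 3 allows up to 3 counts, and at most 0.380 CPM on the other matrices.

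The long non-coding RNA SOX21-AS1 starts next to SOX21 on the other strand. The RefSeq starts of the pair lie head to head with 170 bases between them, at chr13:94712546-94712715 of GRCh38, 59.4% G and C. This segment is printed on the plus strand with its 7 CpG dinucleotides in capitals because both transcripts begin at its ends.
SOX21 to SOX21-AS1: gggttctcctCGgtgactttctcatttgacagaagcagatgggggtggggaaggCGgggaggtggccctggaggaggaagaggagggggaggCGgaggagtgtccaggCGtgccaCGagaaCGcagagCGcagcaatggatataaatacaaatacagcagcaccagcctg
SOX21-AS1 had 45.6, 14.7, and 35.8 CPM on LN523, 5.08, 26.7, and 5.47 CPM on LN323, and 24.3, 26.5, and 61.7 CPM on LN521 at day 2. As for SOX21, LN323 replicates 1 and 3 were lowest and LN521 replicate 3 was highest. By day 22 there were 1.30, 0.285, and 0.515 CPM on LN523, 0.381, 0.0911, and 0.515 CPM on LN323, and 3.99, 3.60, and 0.384 CPM on LN521, and LN521 replicates 1 and 2 were highest for both genes. SOX21-AS1 fell on LN523 (log2 fold change -5.51 ± 0.74, adjusted p = 9.27e-07), LN323 (-5.22 ± 0.89, adjusted p = 3.28e-05), and LN521 (-3.85 ± 0.63, adjusted p = 1.93e-05). The exons of SOX21 overlap no gene on the opposite strand in GENCODE 44, and the strand setting of the counting was not given in the sources used here.

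SOX4 was the more abundant SOXC gene. At day 2 it had 211, 289, and 322 CPM on LN523, 332, 292, and 344 CPM on LN323, and 211, 196, and 310.5 CPM on LN521. At day 22 it had 364, 522, and 482 CPM on LN523, 572, 440.0, and 559.8 CPM on LN323, and 446, 359, and 631 CPM on LN521. All day 22 libraries were above all day 2 libraries. SOX4 rose 1.68-fold on LN523 (log2 fold change 0.74 ± 0.20, adjusted p = 0.00606), 1.62-fold on LN323 (0.70 ± 0.20, adjusted p = 0.00962), and 2.00-fold on LN521 (1.00 ± 0.20, adjusted p = 0.000361). The LN523 call was lost without LN523 day 2 replicate 1, the lowest of its group (adjusted p = 0.0773).

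SOX11, the other SOXC gene, had 124 to 178 CPM at day 2. On day 22 the libraries had 214, 249, and 196 CPM on LN523, 222, 245, and 192 CPM on LN323, and 403, 204, and 209.8 CPM on LN521. All these were above the day 2 libraries, and LN521 replicate 1 stood apart as the highest. SOX11 rose on LN521 (log2 fold change 0.88 ± 0.21, adjusted p = 0.00199), and did so without LN521 day 22 replicate 1 as well (0.56, adjusted p = 0.0401). It rose on LN323 (0.64 ± 0.21, adjusted p = 0.0231), a call lost without LN323 day 2 replicate 1 (adjusted p = 0.0971) or replicate 2 (adjusted p = 0.0654). On LN523 the log2 fold change was 0.53 ± 0.21 (adjusted p = 0.0702), and it passed without LN523 day 22 replicate 1 (adjusted p = 0.0278) or replicate 3 (adjusted p = 0.0341). It also passed in a fit of the 9 LN523 libraries alone (adjusted p = 0.0411) and in limma on log2(TPM + 1) (adjusted p = 0.00702) and on log2(TPM + 0.1) (adjusted p = 0.00598).

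The SOXD genes went from very low to moderate levels. SOX6 had 0.521, 0.370, and 0.849 CPM on LN523, 0.987, 1.09, and 0.213 CPM on LN323, and 1.25, 1.51, and 0.447 CPM on LN521 at day 2, from 7 to 65 counts. At day 22 it had 12.1, 22.7, and 14.3 CPM on LN523, 30.1, 13.5, and 18.0 CPM on LN323, and 19.4, 14.1, and 23.7 CPM on LN521, all far above the day 2 libraries. The rise was 28.9-fold on LN523 (log2 fold change 4.85 ± 0.52, adjusted p = 1.69e-08), 25.9-fold on LN323 (4.69 ± 0.47, adjusted p = 5.09e-09), and 17.8-fold on LN521 (4.16 ± 0.45, adjusted p = 2.18e-08).

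SOX5 had 1.88, 2.19, and 2.24 CPM on LN523, 0.457, 2.57, and 0.578 CPM on LN323, and 2.98, 2.13, and 2.92 CPM on LN521 at day 2. As with SOX21, LN323 replicates 1 and 3 were the lowest. At day 22 SOX5 had 22.5, 8.87, and 18.1 CPM on LN523, 10.2, 12.5, and 11.6 CPM on LN323, and 24.0, 17.5, and 8.68 CPM on LN521, without overlap with day 2. It rose 7.73-fold on LN523 (log2 fold change 2.95 ± 0.44, adjusted p = 5.46e-06), 9.64-fold on LN323 (3.27 ± 0.48, adjusted p = 3.16e-06), and 6.20-fold on LN521 (2.63 ± 0.41, adjusted p = 1.29e-05).

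Of the SOXE genes, SOX9 rose and SOX8 did not pass the test. SOX9 had 9.06, 9.18, and 10.0 CPM on LN523, 10.5, 10.2, and 9.00 CPM on LN323, and 11.7, 11.1, and 10.8 CPM on LN521 at day 2, a narrow spread. By day 22 the libraries had 39.1, 38.4, and 63.1 CPM on LN523, 45.0, 56.8, and 56.2 CPM on LN323, and 38.9, 21.2, and 41.0 CPM on LN521, all above day 2, with LN521 replicate 2 the lowest. The log2 fold change was 2.30 ± 0.25 on LN523 (adjusted p = 2.01e-08), 2.42 ± 0.25 on LN323 (adjusted p = 5.64e-09), and 1.55 ± 0.24 on LN521 (adjusted p = 1.02e-05). The test of a difference between matrices in this change had an unadjusted p of 0.0334 and an adjusted p of 1. SOX8 had 15.6 to 33.1 CPM at day 2 and 45.9, 11.3, and 41.9 CPM on LN523, 33.2, 14.8, and 36.9 CPM on LN323, and 23.0, 33.4, and 32.8 CPM on LN521 at day 22. LN523 replicate 2 and LN323 replicate 2 lay below the other 7 libraries. The SOX8 log2 fold change was 0.35 ± 0.37 on LN523, -0.11 ± 0.37 on LN323, and 0.65 ± 0.37 on LN521 (adjusted p = 0.687, 1, and 0.262).

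**Figure D3:**
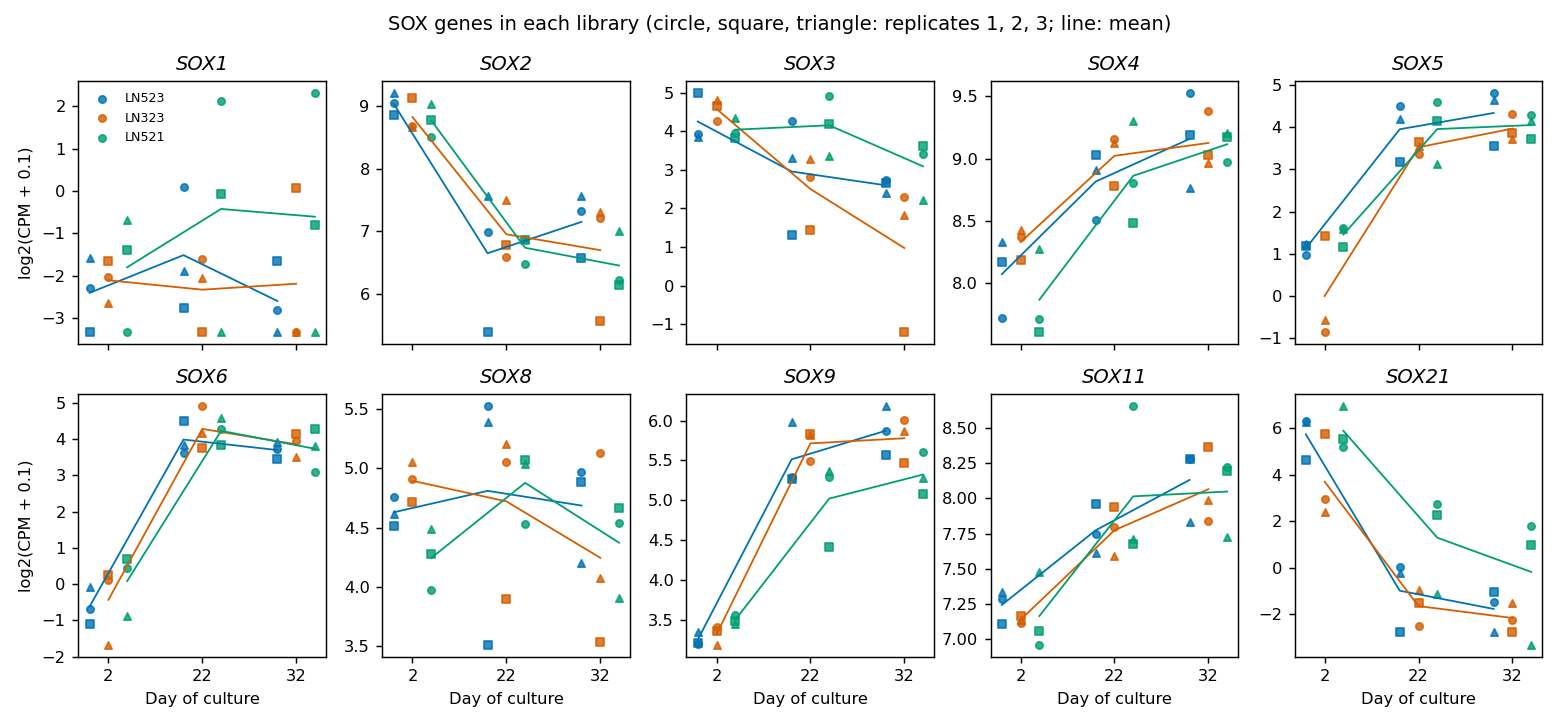
Level of each SOX gene as log2(CPM + 0.1) (vertical axis, scaled for each gene) at days 2, 22, and 32 (horizontal axis, evenly spaced) on each matrix, with circles, squares, and triangles for replicates 1, 2, and 3 and lines through the means. SOX9 lies at 9.00 to 11.7 CPM at day 2 and 21.2 to 63.1 CPM at day 22, and SOX21 goes from 5.11 to 125 CPM to 0.0476 to 6.58 CPM.

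From day 22 to day 32, 0 of the 10 genes passed the edgeR test on LN523, LN323, or LN521, where 0.31%, 0.0334%, and 0.254% of all genes did. Of the 30 values, 0 had an unadjusted p under 0.05, against 4.8% of values over all genes, the lowest adjusted p was 0.743 (SOX3 on LN521), and DESeq2 and limma also called 0. SOX2 had 159, 94.8, and 188 CPM on LN523, 149, 47.1, and 158 CPM on LN323, and 74.1, 69.9, and 128 CPM on LN521 at day 32, with log2 fold changes from day 22 of -0.31 to 0.38 (SE 0.31). SOX3 had 6.61, 6.19, and 5.20 CPM, 4.81, 0.335, and 3.45 CPM, and 10.6, 12.3, and 4.58 CPM in the same order, and its log2 fold changes were -1.21 to -0.71 (SE 0.52 to 0.61). Further ranges of log2 fold change were 0.12 to 0.37 for SOX4 (SE 0.20), -0.02 to 0.36 for SOX11 (SE 0.21), 0.00 to 0.42 for SOX5 (SE 0.35 to 0.36), -0.48 to -0.31 for SOX6 (SE 0.34), -0.50 to -0.25 for SOX8 (SE 0.37), and 0.05 to 0.34 for SOX9 (SE 0.23). The widest values belonged to the low members, with -2.28 to 1.56 for SOX1 (SE 0.70 to 1.64) and -1.35 to -0.98 for SOX21 (SE 0.85 to 2.32), which lay below 0 on each matrix. The libraries of day 22 and day 32 overlapped for each gene and matrix except SOX5 on LN323 (19.9, 14.4, and 13.1 CPM at day 32), beside 9.61% of values without overlap over all genes with a mean of 1 CPM or more.

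Whether the laminin isoform changed the SOX genes was tested within each day. Of 90 values for 10 genes in 9 comparisons, 0 passed the edgeR test, 19 had an unadjusted p under 0.05, and the lowest adjusted p was 0.259. Over all genes and the same comparisons, which share libraries, 4.93% of values had an unadjusted p under 0.05. This pooled share was below that of the members, and single comparisons had 1.27 to 12.5%. Of all genes at day 2, 0% passed for LN523 against LN323, 0.00259% for LN523 against LN521, and 0.256% for LN323 against LN521. In each of the 6 comparisons at days 22 and 32 the share was 0% in the estimate used here. Under edgeR's default estimate, described below, the day 32 comparisons called 0 members. Of all genes it called 0 for LN523 against LN323, 24 for LN523 against LN521, and 46 for LN323 against LN521. The paper, which used DESeq2, reports genes that differed between LN523 and each other matrix at day 32. The groups did not overlap in 7 of the 90 values, namely SOX8 and SOX9 between LN521 and each other matrix at day 2, SOX3 and SOX9 between LN323 and LN521 at day 22, and SOX3 between LN523 and LN323 at day 32. Over all genes with a mean of 1 CPM or more, a floor not applied to the members, the groups did not overlap in 10.4% of values. That share was above the share of the members. The tests of whether a change over time differed between matrices also called 0 members and 0% of all genes for both intervals, with 2 members (SOX3 and SOX9) at an unadjusted p under 0.05 in the first interval and 0 in the second. DESeq2 called SOX3 and SOX21 between LN323 and LN521 at day 22 (adjusted p = 0.00657 and 0.00335), and limma called 0 of the 90. The median log2 fold change of all genes was -0.21 for LN523 over LN521 and -0.22 for LN323 over LN521 at day 2.

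For the abundant members the standard errors were at most 0.34. Over the 9 comparisons the log2 fold change was -0.24 to 0.36 for SOX4 (SE 0.16 to 0.18), -0.27 to 0.12 for SOX11 (SE 0.16 to 0.20), -0.19 to 0.65 for SOX2 (SE 0.16 to 0.34), and -0.34 to 0.68 for SOX9 (SE 0.19 to 0.23). SOX9 had its largest value between LN323 and LN521 at day 22, 0.68 ± 0.23 (adjusted p = 0.975). SOX21 had an unadjusted p under 0.05 in 6 of the 9 comparisons, and SOX1 and SOX3 in 3 each. At day 32 the SOX21 log2 fold change was -2.95 ± 0.86 for LN523 over LN521 (adjusted p = 0.825) and -3.53 ± 0.98 for LN323 over LN521 (adjusted p = 0.78).

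The calls for SOX21 and SOX3 between matrices depended on how the spread of each gene was estimated. The test was first run with edgeR's default estimate, whose prior degrees of freedom were infinite for the 9 day 2 libraries, so that each gene took the common trend in place of its own spread. All 4 combinations of that option with the robust option were then compared with their calls in view, and the estimate used here, with 11.5 prior degrees of freedom at day 2, was chosen after that. Under the default, SOX21 passed at day 2 between LN523 and LN323 (log2 fold change 1.81, adjusted p = 2.59e-09), where 0.233% of genes did, and between LN323 and LN521 (-1.88, adjusted p = 8.39e-12), where 2.5% did. In the estimate used here these values were 1.68 ± 0.74 (adjusted p = 1) and -1.78 ± 0.72 (adjusted p = 0.316). SOX21 was higher on LN523 than on LN323 in lanes 1 and 3 and lower in lane 2, and without LN323 day 2 replicate 2 it passed against both LN523 (log2 fold change of LN523 over LN323 3.44, adjusted p = 4.05e-05) and LN521 (LN323 over LN521 -3.73, adjusted p = 5.43e-06). SOX5 passed as well between LN323 and LN521 without that library.

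At day 22 the default estimate called both genes against LN521. Between LN523 and LN521, where 0.572% of genes passed under the default, SOX21 had -2.86, adjusted p = 0.0163, and SOX3 had -1.28, adjusted p = 0.0334. Between LN323 and LN521, where 0.616% passed, SOX21 had -3.75, adjusted p = 0.000364, and SOX3 had -1.78, adjusted p = 0.000332. In the estimate used here SOX21 had -2.73 ± 0.74 (adjusted p = 0.754) and -3.59 ± 0.87 (adjusted p = 0.618), and SOX3 had -1.14 ± 0.48 (adjusted p = 0.946) and -1.67 ± 0.50 (adjusted p = 0.876). At day 22 the prior degrees of freedom were 87.7 in the default and 6.76 in the estimate used here. DESeq2 also called both genes between LN323 and LN521 at that day, whereas limma and the default with the robust option called neither. The calls thus depended on the method, and a difference of SOX21 or SOX3 between matrices was not established at either day.

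**Figure D4:**
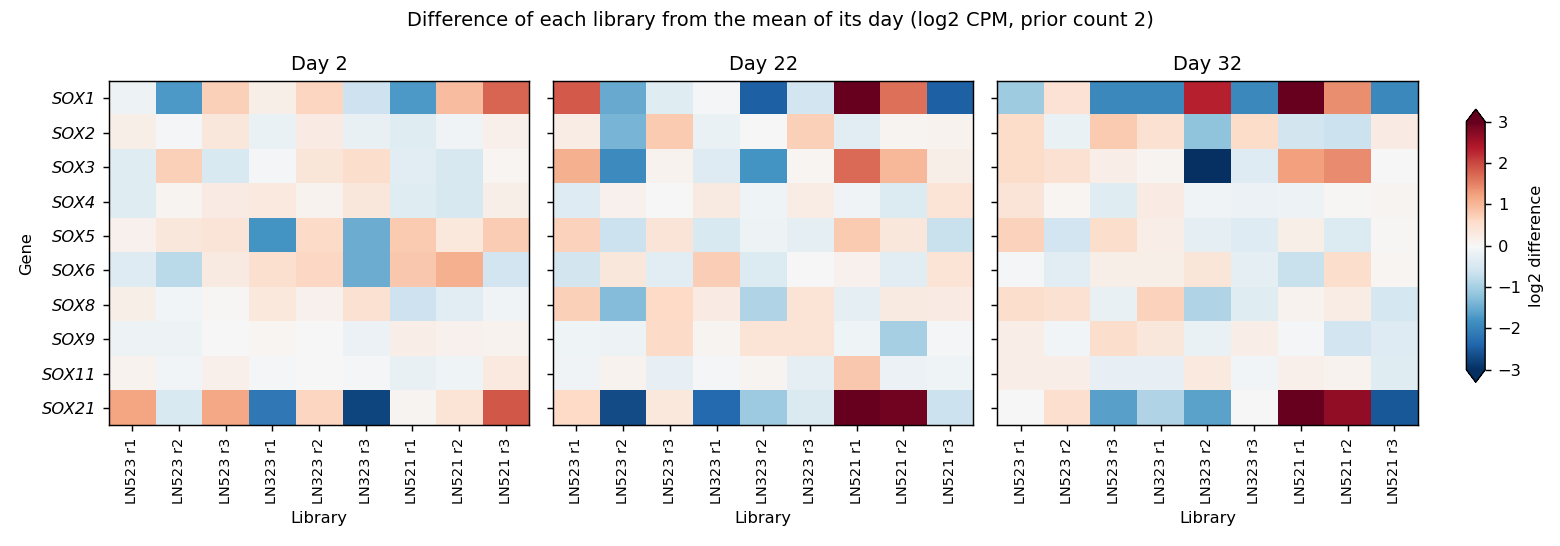
Difference of each library from the mean of the 9 libraries of its day (log2 CPM with a prior count of 2) for the 10 SOX genes (vertical axis) and the libraries of each day (horizontal axis), with red for higher, blue for lower, and colors capped at 3. SOX1, SOX3, and SOX21 are higher in LN521 replicates 1 and 2 at days 22 and 32, and LN523 replicate 2 at day 22 and LN323 replicate 2 at day 32 are lower in SOX2, SOX3, SOX8, and SOX21.

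Single libraries stood apart in several members at once, and some markers of other cell types lay at the end of their range in the same libraries. LN523 day 22 replicate 2 had the lowest SOX2, SOX3, SOX8, and SOX21 of its day. Its 6 retinal progenitor markers summed to 922 CPM against 1065 to 1974 CPM in the other 8 libraries, and its 5 surface ectoderm markers to 114 CPM against 39.1 to 102 CPM. LN323 day 32 replicate 2 had the lowest SOX2 (47.1 CPM), SOX3 (0.335 CPM), and SOX8 (11.5 CPM) of day 32. Its retinal progenitor sum was 935 CPM against 1082 to 2204 CPM, its surface ectoderm sum 266 CPM against 15.4 to 201 CPM, and the sum of its 4 lens markers 232 CPM against 1.75 to 66.1 CPM. LN521 day 22 replicate 1 had the highest SOX1, SOX3, SOX5, SOX11, and SOX21 of its day. Its 7 pluripotency markers summed to 606 CPM against 84.3 to 244 CPM. Its retinal progenitor (1065 CPM) and surface ectoderm (90.2 CPM) sums lay within the range of the other 8 libraries. TFAP2B, a factor of neural crest and surface ectoderm, had 60.04 CPM in LN523 day 22 replicate 2 and 85.0 CPM in LN521 day 22 replicate 1, against 7.04 to 46.3 CPM in the other 7 libraries of that day. In LN323 day 32 replicate 2 it had 74.4 CPM, the highest of day 32. The part of these cell types in the SOX values was not tested.

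The same markers were set against the labels. The pluripotency sum was 8281 to 13543 CPM at day 2, 84.3 to 606 CPM at day 22, and 41.4 to 116 CPM at day 32. The retinal progenitor sum was 3.56 to 6.91 CPM at day 2, 922 to 1974 CPM at day 22, and 935 to 2204 CPM at day 32. The sum of 7 photoreceptor progenitor markers, which include OTX2, was 78.7 to 183 CPM, 57.3 to 82.4 CPM, and 95.9 to 285 CPM, so that it was not above day 2 at day 22. The sum of 6 pigment epithelium markers was 683 to 2153 CPM at day 22 and 414 to 1790.2 CPM at day 32.

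The list of SOX2 partners held 12 genes, all POU or homeodomain factors except SALL4. Of these, 4 rose and 6 fell from day 2 to day 22 on LN523 and on LN323. On LN521, 6 rose and 6 fell. The 6 that fell on each matrix were POU5F1, NANOG, SALL4, POU3F1, POU3F4, and OTX2, and PAX6, SIX3, LHX2, and RAX rose on each. The median log2 fold change was -0.75, -1.25, and 1.02 on LN523, LN323, and LN521, beside 0.03, 0.02, and -0.06 over all genes. POU5F1, which encodes OCT4, fell from 2329 ± 113 to 1.44 ± 0.642 CPM on LN323 (SD, n = 3, log2 fold change -10.84 ± 0.97, adjusted p = 4.82e-10), and NANOG fell from 181 ± 36.7 to 0.125 ± 0.159 CPM (-10.79 ± 0.87, adjusted p = 1.85e-12). POU3F4, a neural POU factor, was at 0 counts in the LN523 libraries of day 22 and was at least 344-fold lower than at day 2, with 3 counts over the group as the floor. The eye field factors rose, with PAX6 going from 1.38 ± 0.309 to 614 ± 196 CPM on LN521 (8.81 ± 0.37, adjusted p = 5.89e-17), LHX2 from 0.384 ± 0.128 to 176 ± 32.7 CPM (8.86 ± 0.44, adjusted p = 2.28e-15), and SIX3 from 0.0707 ± 0.0843 to 48.1 ± 12.7 CPM on LN323 (9.30 ± 0.70, adjusted p = 1.05e-12). From day 22 to day 32, 1 gene of the list changed, SALL4, which fell on LN521 (-2.21 ± 0.41, adjusted p = 0.00849).

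Of 14 neural progenitor genes, the same 9, ZIC1 and GPM6A among them, rose on each matrix, and 1, 4, and 1 fell on LN523, LN323, and LN521. The median log2 fold change was 2.18, 1.93, and 2.31. The neural transcription factor ZIC1 rose from 0.208 ± 0.114 to 34.7 ± 12.4 CPM on LN323 (7.40 ± 0.81, adjusted p = 1.2e-08), and the neuronal membrane glycoprotein gene GPM6A from 2.95 ± 0.865 to 113 ± 22.6 CPM (5.24 ± 0.39, adjusted p = 9.8e-12). NES, which encodes the progenitor filament nestin, fell on each matrix. From day 22 to day 32, HES5, a Notch target, rose on LN523 (1.86 ± 0.42, adjusted p = 0.0343).

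Of 12 newborn neuron genes, listed because SOX4 and SOX11 act in such cells, 2 rose and 3 fell from day 2 to day 22 on LN523 and on LN323, and 5 rose and 0 fell on LN521. The medians were -0.38, -0.01, and 1.31. The adhesion gene NCAM1 rose on LN523 (3.78 ± 0.28, adjusted p = 1.06e-11), as did the microtubule gene MAP2 (3.05 ± 0.33, adjusted p = 1.73e-08), whereas the growth cone gene GAP43 fell (-2.06 ± 0.43, adjusted p = 0.000441). NCAM1 and MAP2 also rose on LN323 and LN521, and GAP43 also fell on LN323. From day 22 to day 32, 6 rose and 0 fell on LN523, and 0 passed on LN323 or LN521, with medians of 1.83, 1.16, and 0.32. A difference between matrices in this change was not established. The edgeR test of it called 0 of 44852 genes, and 0 genes of the list passed between matrices at day 32. The neuronal RNA-binding genes ELAVL4 (4.55 ± 0.87, adjusted p = 0.00877) and ELAVL3 (4.46 ± 0.86, adjusted p = 0.00906) and the neurogenic factor NHLH1 (4.33 ± 0.63, adjusted p = 0.000213) rose on LN523. In that interval SOX4 had 0.37 ± 0.20 and SOX11 0.36 ± 0.21 on LN523, with an adjusted p of 1 for both.

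SOX9, SOX5, and SOX6 are known to act together on collagen genes in cartilage. Of 10 cartilage targets, 4 rose and 1 fell on each matrix, with medians of 0.00, -0.12, and 0.70. The 4 were COL2A1, COL9A1, COL9A2, and COL11A1, which encode fibrillar and associated collagens, and the 1 was MATN3, a matrix protein gene. COL2A1 rose from 28.7 ± 11.4 to 2851 ± 1804 CPM on LN523 (6.49 ± 0.43, adjusted p = 7.89e-13), COL9A2 from 6.62 ± 1.79 to 348 ± 27.9 CPM (5.75 ± 0.40, adjusted p = 3.41e-12), and COL11A1 from 48.9 ± 18.1 to 352 ± 108 CPM (2.86 ± 0.33, adjusted p = 5.2e-08). MATN3 fell on LN521 (-2.24 ± 0.36, adjusted p = 1.5e-05). HAPLN1, a cartilage link protein gene, fell on LN521 from day 22 to day 32 (-3.44 ± 0.74, adjusted p = 0.0335).

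Of 16 glial and neural crest genes tied to the SOXE group, 7 rose and 3 fell on LN523 and on LN323, and 6 rose and 2 fell on LN521. The medians were 1.60, 1.84, and 1.48, or 1.46, 1.84, and 1.48 with genes at 0 in a group set to their bound. FOXD3, a factor of both pluripotent cells and neural crest, fell on LN523 (-8.40 ± 0.67, adjusted p = 3.64e-12). The crest factor TFAP2B rose on LN521 from 0.0670 ± 0.0224 to 49.2 ± 34.4 CPM (10.31 ± 1.38, adjusted p = 1.13e-06). On LN523, where TFAP2B was at 0 counts at day 2, it had 7.04, 60.04, and 8.98 CPM at day 22. With 3 counts over the group as the floor, this was at least 818-fold higher, or at least 258-fold without replicate 2. FOXD3 fell, and TFAP2A, TFAP2B, and SNAI2 rose, on each matrix. SNAI2, a crest and mesenchyme factor, had 5.44 ± 0.77 on LN521 (adjusted p = 1.78e-06), and TFAP2A had 6.68 ± 0.74 on LN323 (adjusted p = 1.42e-08). From day 22 to day 32 OLIG2, an oligodendrocyte lineage factor, rose on LN523 (4.05 ± 0.55, adjusted p = 6.69e-05) and LN521 (3.89 ± 0.61, adjusted p = 0.0012).

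Of 6 genes of the WNT response, several with an HMG box, 1 rose and 3 fell on LN523, and 2 rose and 2 fell on LN323 and on LN521, with medians of -0.47, -0.55, and -0.22. LEF1, an HMG box factor that acts with beta-catenin, rose from 0.382 ± 0.107 to 40.6 ± 10.8 CPM on LN323 (6.74 ± 0.57, adjusted p = 5.9e-11), and TCF7L1, a related repressor, fell (-1.67 ± 0.25, adjusted p = 3.95e-06). LEF1 rose, and TCF7L1 and TCF7L2 fell, on each matrix, with -1.29 ± 0.24 for TCF7L2 on LN521 (adjusted p = 0.00012). TCF7 rose on LN323 (0.91 ± 0.28, adjusted p = 0.0167) and on LN521. AXIN2, a WNT target, passed on LN523 only, where it fell (-1.17 ± 0.41, adjusted p = 0.0376). From day 22 to day 32, 0 of the 6 passed on any matrix.

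Of 9 other SOX genes listed, 8 were tested and SOX10 was not analysed here. From day 2 to day 22, 4 fell on LN523, 2 on LN323, and 2 on LN521, and 0 rose, with medians of -0.88, -0.95, and -0.01. SOX30 fell on LN523 from a low level, 1.06 ± 0.257 to 0.135 ± 0.0758 CPM (-2.98 ± 0.78, adjusted p = 0.00349), and also fell on LN521. SOX15, a SOX gene of pluripotent cells, fell on LN523 (-2.39 ± 0.32, adjusted p = 6.98e-07), LN323 (-2.03 ± 0.32, adjusted p = 8.97e-06), and LN521 (-2.35 ± 0.32, adjusted p = 1.12e-06). SOX13, the remaining SOXD gene, fell on LN523 (-1.50 ± 0.26, adjusted p = 3.55e-05) and LN323 (-1.77 ± 0.26, adjusted p = 3e-06), and on LN521 from day 22 to day 32 (-1.21 ± 0.26, adjusted p = 0.0335). Of 5 long non-coding RNAs at SOX loci, SOX21-AS1 and SOX2-OT fell on each matrix and SOX9-AS1 rose on LN523 (2.21 ± 0.75, adjusted p = 0.0304), with medians of 1.86, 0.11, and 0.05, or -0.23, -0.36, and 0.05 with genes at 0 set to their bound. SOX2-OT, whose introns hold SOX2, had -1.91 ± 0.42, adjusted p = 0.000888 on LN523, -1.51 ± 0.45, adjusted p = 0.0129 on LN323, and -1.49 ± 0.41, adjusted p = 0.00678 on LN521.

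Likeness of profile was measured as the root mean square difference between the 9 group means of log2 CPM, each profile centred on its own mean. Among the members, SOX4 and SOX11 were nearest to each other (0.17), as were SOX5 and SOX9 (0.64) and SOX2 and SOX3 (0.88), whereas SOX21 was 2.33 from its nearest member, SOX2. Among 16215 genes outside the members, the nearest to SOX2 were DLGAP5 (0.14), FAR2P2 (0.15), and NLN (0.17), and the nearest to SOX21 were ECEL1P1 (0.49), ALPG (0.67), and SOX21-AS1 (0.69). SOX11 was nearest to FAM3A (0.06), CRY2 (0.06), and PRRG3 (0.08). SOX5 was nearest to FLJ16779 (0.20), SHC2 (0.21), and ZBTB20 (0.22), and SOX6 to C5 (0.19), SCUBE3 (0.19), and NCALD (0.21). SOX8 was nearest to PIERCE1 (0.09), KIF24 (0.11), and RPS27P4 (0.13), and SOX9 to DENND4A (0.11), BEND7 (0.14), and FOXP1 (0.16). SOX3 was nearest to ATP2A1-AS1 (0.33), SERPINA5 (0.43), and KCNK10 (0.47), and SOX1 to CA3 (0.44), GRIA1 (0.46), and PRSS22 (0.46). These distances are a description, and a gene that varied little, such as SOX8, is near to many others.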

How the data were processed

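Per the labels and the paper's methods, the authors made the libraries with the TruSeq stranded total RNA kit and sequenced 150-base read pairs. The submitters' processing notes name cutadapt, STAR 2.5.2b, featureCounts 1.5.1, and hg38, and the authors deposited rounded read counts per gene with ribosomal and mitochondrial genes removed, and TPM values, which allow for gene length. The strand setting of the counting was not given in the sources used here. Of the non-zero deposited counts, 68.8% were even numbers, so 1 count may not stand for 1 independent fragment. The bounds set at 3 counts for SOX21, POU3F4, and TFAP2B hold only if each count is an independent fragment. Of 44852 genes, 43052 were matched to a symbol, and gene positions were taken from GENCODE 44 on GRCh38. Totals were 25620624 to 47340990 counts per library (median 39862487), which sets the precision for low genes such as SOX1.

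Counts were tested with edgeR 4.0.16 (R 4.3.3, TMM, genes with more than 1 count in sum, quasi-likelihood test, Benjamini-Hochberg adjustment over all genes, threshold 0.05). Comparisons over time and tests of a difference between matrices used all 27 libraries, and comparisons between matrices used the 9 libraries of a day. The SE of an edgeR log2 fold change was taken as its absolute value over the square root of the quasi-likelihood F statistic. The lane, which the labels name and which equals the replicate number, was a block, as in the study's model. Libraries sharing a lane deviated together unevenly: over 16366 genes the correlations ranged from -0.51 to 0.77 over 15 comparisons, and exceeded 0.1 in every lane in 2 of them. The quasi-dispersions were estimated with the legacy and robust options off. The default (legacy) was run first, the 4 combinations were compared with their calls in view, and this one was then chosen because the default's prior degrees of freedom were infinite at day 2. DESeq2 1.42.0 on counts and limma 3.58.1 on log2(TPM + 1) and log2(TPM + 0.1) were alternatives, beside RLE scaling, a filter on low counts, no block, other sets of libraries, and leaving out each library. Scripts were tested on simulated data. The members and gene lists were chosen with earlier results of these data known. The text names all members and, per list and comparison, up to 3 called genes with the largest absolute log2 fold change with 1 CPM or more on average in either group, NES, COL9A1, and genes given by count being named after their values were seen. The genes nearest in profile to SOX4 and the summed neural crest markers are not reported here.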

Additional observations from a re-analysis of the deposited data

How the results depend on the processing

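The 21 calls of members between day 2 and day 22 were recomputed under 336 alternative values, of which 329 kept the call, 7 lost it, and 0 changed sign. The lost ones concerned SOX3 on LN323 in 4, SOX11 on LN323 in 2, and SOX4 on LN523 in 1. Calls were gained for SOX11 on LN523 under 5 alternatives and for SOX1 on LN521 under 3. Removing the lane block (pairing) changed the number of members called in 2 of the 17 comparisons and tests, giving 1 member between LN323 and LN521 at day 2 in place of 0 and adding SOX1 to the members changed on LN521 by day 22. The default legacy estimate was run first, and the estimate used here was chosen later, with the calls in view. The legacy estimates gave 1 member between LN523 and LN323 and 1 between LN323 and LN521 at day 2, with and without the robust option. Without it they also gave 2 for LN523 against LN521 and 2 for LN323 against LN521 at day 22, where DESeq2 likewise gave 2 in the latter. Leaving out each library in turn gave 0 to 1 member between LN523 and LN323 and 0 to 2 between LN323 and LN521 at day 2, the highest without LN323 day 2 replicate 2. Some uncalled log2 fold changes turned direction. SOX1 on LN323 had 0.010 in limma on log2(TPM + 1) and -1.24 to 0.58 with a library left out, and SOX8 on LN323 had 0.17 in both limma fits and -0.30 to 0.27. SOX3 on LN521 had -0.049 to 0.57 and SOX21 between LN523 and LN521 at day 2 -0.89 to 0.82 with a library left out. The causes were not tested. SOX1 had 0 to 20 counts a library at day 2, so small changes from that level were not detectable at this depth, and its 187, 36, and 0 counts on LN521 at day 22 were widely spread, as were the 290, 200, and 13 counts of SOX21.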
